A study of Mus musculus with 4 samples.

Results

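The genes described here are Slc17a7, Slc17a6 and Slc17a8, which encode the vesicular glutamate transporters VGLUT1, VGLUT2 and VGLUT3. They were chosen by gene name and are 3 of the 29224 genes in the count table, and all 3 were among the 16793 genes with enough counts to be tested. RNA-seq was performed on cells taken from the cerebral cortex of mouse pups at postnatal day 5 with magnetic beads carrying the anti-GLAST antibody ACSA-1, which binds a glutamate transporter on the astrocyte surface. The 2 Ezh2 f/f libraries came from mice whose Ezh2 alleles are flanked by loxP sites, and the 2 Ezh2 cKO libraries came from such mice that also carried Cre recombinase under the Aldh1l1 promoter, which is active in astrocytes. The 2 Ezh2 f/f libraries are called controls from here on. Both groups share the floxed alleles and differ by the Cre transgene. How many pups went into a library, and whether the libraries of a group came from separate pups, is not given in the sources used here, so p-values measure the spread between these libraries, which may be technical.

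Vesicular glutamate transporters move glutamate from the cytoplasm into synaptic vesicles, using the gradient that a proton pump, the V-ATPase, sets up across the vesicle membrane. A neuron that carries one of them can release glutamate as a transmitter. Slc17a7 is the main form of mature cortical excitatory neurons, Slc17a6 is the main form of the thalamus and brainstem and is also made by young cortical neurons, and Slc17a8 is found in small populations such as serotonergic neurons, striatal cholinergic interneurons and some cholecystokinin-positive cortical interneurons. In cortex the Slc17a7 transcript is known to rise after birth.

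Total counts ranged from 16273308 to 17522152 per library. At this depth 3 counts, used here as the limit that a count of 0 allows, correspond to between 0.170 and 0.191 CPM (counts relative to the library size after TMM adjustment), for counting error only. The targeted gene Ezh2 was lower in Ezh2 cKO (log2 fold change -1.11, adjusted p = 3.26e-05 in edgeR), in the direction of the labels. Of 12 astrocyte markers all were counted in every library, and their summed level was 648 and 705 CPM in the controls and 3345 and 3049 CPM in Ezh2 cKO. Of 13 pan-neuron markers all were counted as well, at a summed 7779 and 8324 CPM in the controls and 9596 and 9603 CPM in Ezh2 cKO, so the libraries labelled as astrocytes also held abundant neuronal transcripts. In bulk RNA, more cells of a type and more transcript per cell cannot be told apart.

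The promoters of the 3 genes are shown first, because the gene removed here, Ezh2, encodes the enzyme of Polycomb repressive complex 2, which in mammals is known to occupy CpG-rich promoters. Each line gives the 250 bases before the most upstream RefSeq start, read 5′ to 3′ on the strand of the gene, with every CG dinucleotide in capitals. The windows lie on GRCm38.p6 at chr7:45163671-45163920 (plus strand) for Slc17a7, chr7:51621580-51621829 (plus strand) for Slc17a6 and chr10:89621250-89621499 (minus strand) for Slc17a8.
Slc17a7: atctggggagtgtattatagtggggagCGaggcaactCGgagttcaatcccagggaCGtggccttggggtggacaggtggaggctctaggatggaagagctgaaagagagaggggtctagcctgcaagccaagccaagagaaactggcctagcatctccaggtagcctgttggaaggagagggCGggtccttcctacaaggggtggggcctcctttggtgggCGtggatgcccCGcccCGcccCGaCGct
Slc17a6: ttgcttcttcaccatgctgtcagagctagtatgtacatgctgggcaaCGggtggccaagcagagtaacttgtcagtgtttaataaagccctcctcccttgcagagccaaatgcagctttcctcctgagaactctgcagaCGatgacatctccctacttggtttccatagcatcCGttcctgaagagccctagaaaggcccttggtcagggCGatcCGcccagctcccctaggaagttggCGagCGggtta
Slc17a8: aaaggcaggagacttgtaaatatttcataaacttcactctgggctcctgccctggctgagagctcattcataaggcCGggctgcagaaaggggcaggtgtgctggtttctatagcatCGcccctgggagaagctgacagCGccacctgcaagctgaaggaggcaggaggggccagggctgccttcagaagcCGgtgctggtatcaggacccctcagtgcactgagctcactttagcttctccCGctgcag
The Slc17a7 window held 9 CG dinucleotides, the Slc17a6 window 7 and the Slc17a8 window 5, beside a median of 6 over 27025 promoter windows of the same length. At least as many CG dinucleotides as in Slc17a7 were found in 40.8% of all windows. The share was 46.6% for Slc17a6 and 55.5% for Slc17a8. By CG count the 3 windows were thus close to the middle of all windows. Bases after the start were not counted, so whether the promoters are CpG-rich beyond these windows was not tested. The GC box, searched as GGGCGG on both strands, occurred 3 times before Slc17a7, where 2 copies overlap by a base, once before Slc17a6 and not before Slc17a8, and 33.0% of all windows held it. These are matches of letters and say nothing of binding.

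Slc17a7 was the most abundant of the family in every library and rose the most in absolute level. The table places it (ENSMUSG00000070570) at chr7:44813373-44825566, plus strand, in the deposited coordinates, whose build is not settled. It had 2293 and 1817 counts in the controls and 24670 and 22655 counts in Ezh2 cKO. As FPKM, which scale counts to gene length and library size, this was 24.3 and 20.7 FPKM in the controls and 264 and 252 FPKM in Ezh2 cKO. Both Ezh2 cKO libraries lay far above both control libraries. Among all genes ordered by FPKM, Slc17a7 stood at rank 2375 and 2774 in the controls and at rank 127 and 130 in Ezh2 cKO. The mean level was 125 ± 13.2 CPM in the controls and 1353 ± 64.8 CPM in Ezh2 cKO (SD, n = 2 libraries each). The log2 fold change was 3.44 (standard error 0.09, adjusted p = 1.26e-11 in edgeR), a 10.8-fold rise with a 95% interval of 9.41 to 12.5.

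Slc17a6 (ENSMUSG00000030500) lies at chr7:51271754-51320867, plus strand, in the same coordinates, and its level was similar in the libraries of both groups. It had 415 and 454 counts in the controls and 467 and 515 counts in Ezh2 cKO, or 4.39 and 5.17 FPKM against 4.99 and 5.72 FPKM. The groups overlapped, with Ezh2 f/f replicate 2 above Ezh2 cKO replicate 1. The mean level was 26.6 ± 3.25 CPM in the controls and 28.1 ± 2.29 CPM in Ezh2 cKO (SD, n = 2 libraries each), a difference smaller than the spread between replicates. The log2 fold change was 0.08 (standard error 0.13, adjusted p = 0.586 in edgeR), with a 95% interval of -0.19 to 0.35. The interval runs from 0.876-fold to 1.28-fold, so a change within it was not detectable at this depth and number of libraries, while the fold seen for Slc17a7 lies outside it. Leaving out 1 library at a time moved the log2 value between -0.041 and 0.19, so its sign depends on single libraries (-0.041 without Ezh2 f/f replicate 1, and -0.00093 when Ezh2 cKO replicate 2 was dropped).

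Slc17a8 was the least abundant of the family in every library and was higher in Ezh2 cKO. The table places it (ENSMUSG00000019935) at chr10:89409882-89457115, minus strand. It had 4 counts in each control library, just above the limit of 3, and 46 and 68 counts in the Ezh2 cKO libraries. In FPKM this was 0.0484 and 0.0521 in the controls and 0.562 and 0.864 in Ezh2 cKO. The Ezh2 cKO libraries differed from each other more than those of the controls did. Summed over a group there were 8 counts in the controls (95% Poisson interval 3.45 to 15.8) and 114 in Ezh2 cKO (94.0 to 137). The log2 fold change was 3.70 (standard error 0.45, adjusted p = 5.20e-06 in edgeR), a 13.0-fold rise with a wide 95% interval of 6.69 to 25.3, which holds the fold of Slc17a7.

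**Figure D1:**
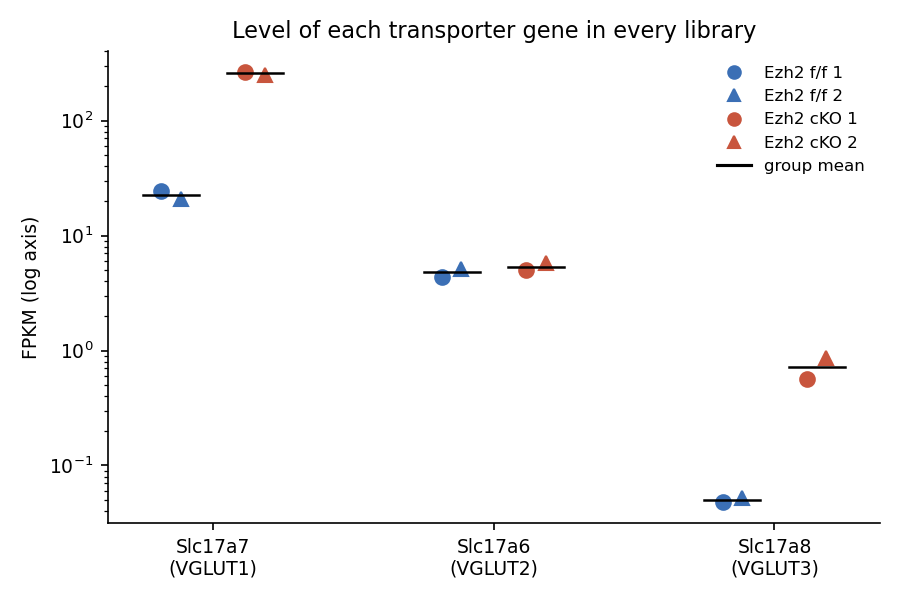
FPKM on a log axis of Slc17a7, Slc17a6 and Slc17a8 in every library, with circles for replicate 1, triangles for replicate 2 and a black line at each group mean. Slc17a7 lies at 20.7 to 24.3 FPKM in the controls and 252 to 264 FPKM in Ezh2 cKO, Slc17a6 stays between 4.39 and 5.72 FPKM, and Slc17a8 lies below 1 FPKM throughout.

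Thus 2 of the 3 transporter genes were higher in Ezh2 cKO, none was lower, and Slc17a6 did not pass the test. Over all genes tested, 34.7% were called higher and 33.6% called lower (edgeR, adjusted p below 0.05), 68.4% in all. With only 3 genes, 2 called higher beside a share of 34.7% is no result about the family. The size of the Slc17a7 change lies further from the background. The median log2 fold change over all genes tested was 0.02, and from the highest log2 fold change down, Slc17a7 stood at rank 203 and Slc17a8 at rank 159. Slc17a8 passed the filter on low counts only through the Ezh2 cKO libraries, where it is high. Its rank is thus partly set by the filter and does not set it apart from the background. By p, Slc17a7 stood at rank 6, Slc17a8 at rank 3328 and Slc17a6 at rank 15309 of the tested genes.

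The balance between Slc17a7 and Slc17a6 was then compared in each library. Since the lengths behind their FPKM values are 5392 and 5399 bases, ratios of FPKM and of counts are almost equal. In FPKM, Slc17a7 was 5.53 and 4.01 times Slc17a6 in the controls and 52.9 and 44.0 times Slc17a6 in the Ezh2 cKO libraries. The libraries of each group kept together and the groups did not overlap. Of the counts of both genes, Slc17a7 took 84.7% (exact Clopper-Pearson 95% interval 83.3 to 86.0) and 80.0% (78.3 to 81.6) in the controls, and 98.1% (98.0 to 98.3) and 97.8% (97.6 to 98.0) in Ezh2 cKO. The intervals of the controls do not meet, nor do those of Ezh2 cKO by a narrow margin (low end 97.97% in replicate 1, high end 97.96% in replicate 2), so in both groups the libraries differ from each other beyond counting error. The log2 ratio was 2.24 ± 0.33 in the controls and 5.59 ± 0.19 in Ezh2 cKO (SD, n = 2 libraries each), a difference of 3.36, or 10.3-fold. The exact permutation test over the libraries gave p = 0.333 (two-sided), which is the smallest that 2 libraries against 2 allow.

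The make-up of the family followed this ratio. Of the summed FPKM of the 3 genes, Slc17a7 held 84.5% and 79.9% in the controls and 97.9% and 97.5% in Ezh2 cKO, while Slc17a6 held 15.3% and 19.9% and then 1.85% and 2.21%. The share of Slc17a8 was 0.168% and 0.201% in the controls and 0.209% and 0.334% in Ezh2 cKO. The order Slc17a7, Slc17a6, Slc17a8 held in all 4 libraries, and the summed FPKM went from 27.3 ± 1.96 in the controls to 264 ± 7.82 in Ezh2 cKO (SD, n = 2 libraries each).

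**Figure D2:**
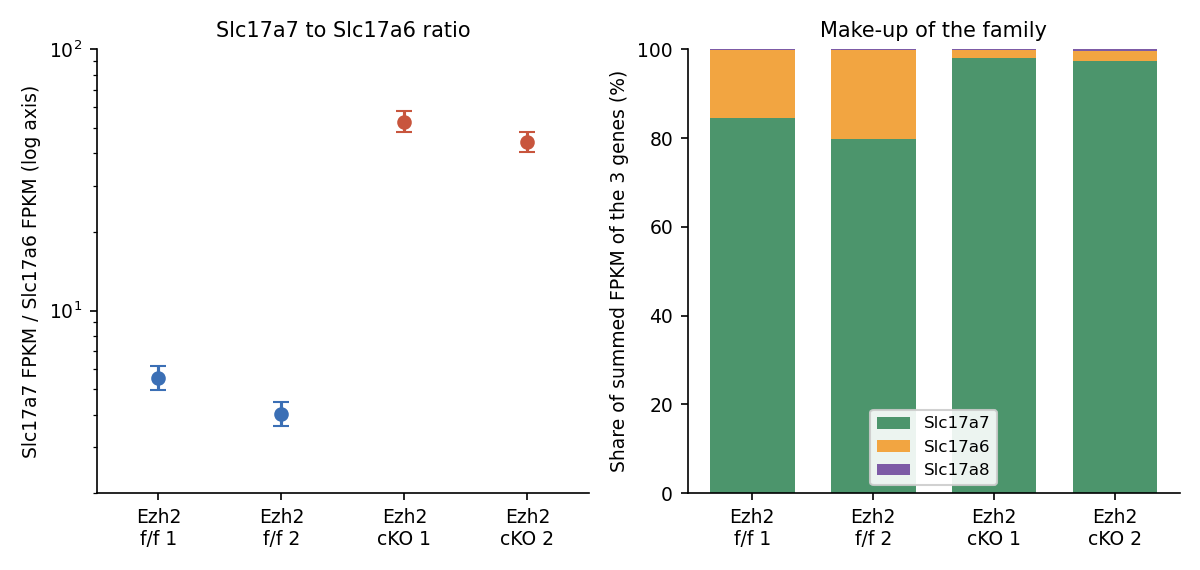
Left, the Slc17a7 to Slc17a6 ratio of FPKM in each library on a log axis, with exact binomial 95% intervals that cover counting error only. Right, the share of each gene in the summed FPKM of the family; Slc17a6 takes 15.3% and 19.9% in the controls and about 2% in Ezh2 cKO.

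Slc17a6 and Slc17a7 are known for different brain regions, so transcripts of subcortical glutamatergic neurons were examined beside them. Of 10 such markers, 6 were tested, 4 were lower and 0 higher in Ezh2 cKO, beside 33.6% lower and 34.7% higher over all genes tested. Their level was uneven between the controls, with a sum of 57.8 and 254 CPM, against 35.4 and 36.0 CPM in Ezh2 cKO. Tcf7l2, a transcription factor gene of thalamic neurons, had 88 and 1457 counts in the controls and 60 and 75 in Ezh2 cKO. Gbx2, another thalamic regulator, had 9 and 138 counts in the controls and 0 in both Ezh2 cKO libraries. Shox2 had 0 and 72 counts, and Pou4f1, a marker of the habenula, 3 and 60 counts, in the controls. Ezh2 f/f replicate 2 was thus the library with the most of each of these transcripts. Of the controls it also had more Slc17a6 (28.9 CPM, against 24.3 CPM in replicate 1) and the lower Slc17a7 to Slc17a6 ratio. The highest Slc17a6 level of all libraries was that of Ezh2 cKO replicate 2 (29.7 CPM), where the subcortical markers summed to 36.0 CPM. Without Ezh2 f/f replicate 2 the log2 fold change of Slc17a6 was 0.19, that of Slc17a7 was 3.32 and the log2 ratio of both differed by 3.13. The log2 fold changes of the subcortical markers were then -2.21 for Barhl2, -1.60 for Zic1, -1.09 for Lhx9, -0.43 for Tcf7l2, 0.67 for Lef1 and 0.83 for Ntng1. Without Ezh2 f/f replicate 1 instead, 9 markers were tested, with a median log2 fold change of -3.09. The filter on low counts then took in markers counted almost only in Ezh2 f/f replicate 2, such as Gbx2 and Shox2. Those could only come out lower, so this median cannot be compared with that of the 6 markers. The part of subcortical tissue in the Slc17a6 value was not tested.

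Among cortical excitatory neuron markers, 5 of 15 were higher, 6 lower and 4 not called. These counts are near the 34.7% higher and 33.6% lower over all genes tested, and are no result about the list. The median log2 fold change was 0.04, which turned to between -0.20 and -0.00073 when a library was left out. The 3 largest log2 fold changes of the list were those of Nrgn, Sv2b and Camk2a. Nrgn, a calmodulin-binding protein of dendritic spines, was at 3.11, Sv2b, a synaptic vesicle protein, at 3.05, and Camk2a, a kinase of the postsynaptic density, at 3.04 on the log2 scale. Sv2b had 368 and 305 counts in the controls and 2967 and 2973 in Ezh2 cKO. Transcription factors of young excitatory neurons went the other way, with Neurod2 at -1.74, Neurod6 at -1.13 and Cux1 at -0.94. None of the 15 had a larger log2 fold change than Slc17a7, and 6 of them had a larger one than Slc17a6.

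Of the 13 pan-neuron markers 11 were higher and 2 lower, with a median log2 fold change of 1.33. The largest was that of Syt1, the calcium sensor of vesicle release, at 2.61. The lower ones were Tubb3 (-0.71), a neuronal tubulin, and Dcx (-1.49), a microtubule protein of young neurons. Of these markers none had a larger log2 fold change than Slc17a7, and 11 had a larger one than Slc17a6. Among 10 inhibitory neuron markers 2 were higher and 4 lower, with a median of -0.13, beside 34.7% and 33.6% over all genes tested.

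Slc17a8 was set beside 9 markers of the neurons known to use it, of which 7 were tested, 3 were higher and 1 was lower. The shares over all genes tested were 34.7% higher and 33.6% lower, so these few calls are no result about the list. Cck, the neuropeptide gene of an interneuron class and of many pyramidal neurons, was higher (822 and 708 counts in the controls, 3588 and 3299 in Ezh2 cKO, log2 fold change 2.08). Tph2, the enzyme of serotonin synthesis in neurons, had 12 and 4 counts in the controls and 36 and 22 in Ezh2 cKO, and Slc5a7, the choline transporter of cholinergic neurons, had 6 and 1 against 15 and 25 counts. Both passed the test (adjusted p = 0.00593 and 0.00399 in edgeR). At these low counts they passed the filter through the Ezh2 cKO libraries, the group where they are high, so the calls carry little weight. Htr3a, a serotonin receptor gene of interneurons, was lower (-1.27). Other transcripts of these cells did not pass. Slc6a4, the serotonin transporter, had 22 and 49 counts in the controls and 27 and 21 in Ezh2 cKO (log2 fold change -0.67, adjusted p = 0.162 in edgeR), and Slc18a3, the vesicular acetylcholine transporter, had 39 and 36 against 39 and 37 counts (-0.07). Chat, the enzyme of acetylcholine synthesis, had 4 and 4 against 12 and 8 counts and Fev, a transcription factor of serotonergic neurons, at most 2 counts in a library, and neither was tested. The source of the Slc17a8 counts was not tested.

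**Figure D3:**
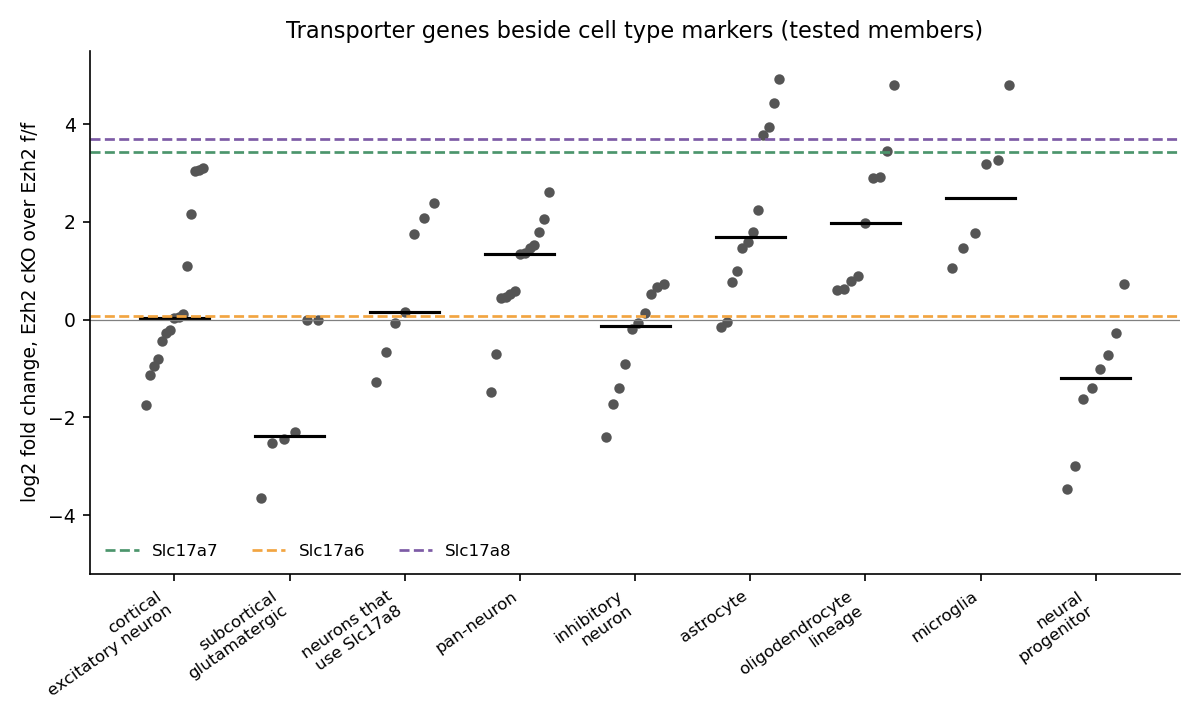
Log2 fold changes (Ezh2 cKO over controls) of the tested members of each cell type marker list, as points in ascending order with the list's median as a black line, and of the transporter genes as dashed lines. Slc17a7 (3.44) and Slc17a8 (3.70) lie above every tested marker of neurons, while some astrocyte, oligodendrocyte lineage and microglia markers lie higher; Slc17a6 lies near 0.

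Markers of other cells moved with the groups as well. Of 12 astrocyte markers 10 were higher and 0 lower (median log2 fold change 1.69), of 9 oligodendrocyte lineage markers all 9 were higher (1.97), and of 6 microglia markers all 6 were higher (2.48). Of 8 neural progenitor markers 7 were lower and 1 higher, with a median of -1.20. Over all genes tested, 34.7% were called higher and 33.6% lower, with a median of 0.02. Summed levels of oligodendrocyte lineage markers were 222 and 232 CPM in the controls and 1169 and 1009 CPM in Ezh2 cKO, those of microglia markers 53.0 and 56.2 against 204 and 175 CPM, and those of progenitor markers 631 and 622 against 164 CPM in each Ezh2 cKO library. Their part in the values of the transporter genes was not tested.

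The other genes of the SLC17 family and the transporters that fill vesicles with other transmitters did not share one direction. Slc17a9, which loads nucleotides such as ATP into vesicles, had 618 and 504 counts in the controls and 11 and 12 in Ezh2 cKO, which gave a log2 difference of -5.68 (standard error 0.21, edgeR adjusted p = 1.07e-10). Slc17a5, the lysosomal sialic acid transporter, was at 0.22 (adjusted p = 0.250). Slc17a2 had at most 2 and Slc17a3 at most 5 counts in a library, and Slc17a1 and Slc17a4 are not in the table used here, so 2 of 6 relatives were tested, of which 1 was lower. Slc32a1, which loads GABA and glycine, was higher, with 916 and 877 counts in the controls and 1504 and 1655 in Ezh2 cKO (log2 fold change 0.72). Slc18a2, the vesicular monoamine transporter of neurons, was higher at 1.18, and Slc18a3 (-0.07) did not pass. Slc18a1, the monoamine transporter of endocrine cells, was lower, with 26 and 28 counts in the controls and 3 and 0 in Ezh2 cKO. Its log2 fold change was -4.15 in edgeR, with a wide 95% interval of -5.62 to -2.69. Both Ezh2 cKO libraries were at or under 3 counts, so the size of this fall is uncertain. Beside 34.7% higher and 33.6% lower over all genes tested, the few calls in these lists are no result about the lists.

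The V-ATPase, which powers the loading of vesicles but also acidifies lysosomes in all cells, had smaller log2 fold changes than Slc17a7. Of 25 subunit and accessory genes, 21 were tested, and 16 were higher, 2 lower and 3 not called, with a median log2 fold change of 0.51, beside 34.7% higher and 33.6% lower and a median of 0.02 over all genes tested. The largest was that of Atp6v1g2, the form of the G subunit known from neurons, with 1369 and 1607 counts in the controls and 6243 and 5604 in Ezh2 cKO (1.89). Its widely expressed counterpart Atp6v1g1 was lower (-0.42). The catalytic subunit gene Atp6v1a was at 1.34, and Atp6v0a1, the neuronal form of the membrane subunit, at 0.19 (adjusted p = 0.0580 in edgeR).

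Among 12 genes for the synthesis and supply of glutamate in neurons, 8 were higher and 2 lower, with a median of 0.52. The shares over all genes tested were 34.7% and 33.6%, with a median of 0.02. Gls2, a glutaminase gene, was higher (2.54), with 33 and 40 counts in the controls and 251 and 203 in Ezh2 cKO. Slc25a18, a mitochondrial glutamate carrier known from astrocytes, was the highest of the list at 2.69. The glutamine transporter genes Slc38a1 (-0.70) and Slc38a2 (-0.52) were lower. Of the endophilins, membrane-bending proteins that bind the tail of VGLUT1, Sh3gl2, the form of neurons, was higher (1.29), and Sh3gl1 (-0.45) and Sh3gl3 (-0.25) were lower. The count of lower endophilin genes was 1 with DESeq2, without the filter on low counts, without Ezh2 f/f replicate 2 and without either Ezh2 cKO library. The ion exchanger genes Clcn3 (0.90) and Slc9a9 (1.65), whose products move chloride or cations across vesicle and endosome membranes, were higher. None of these pathway genes had a larger log2 fold change than Slc17a7.

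**Figure D4:**
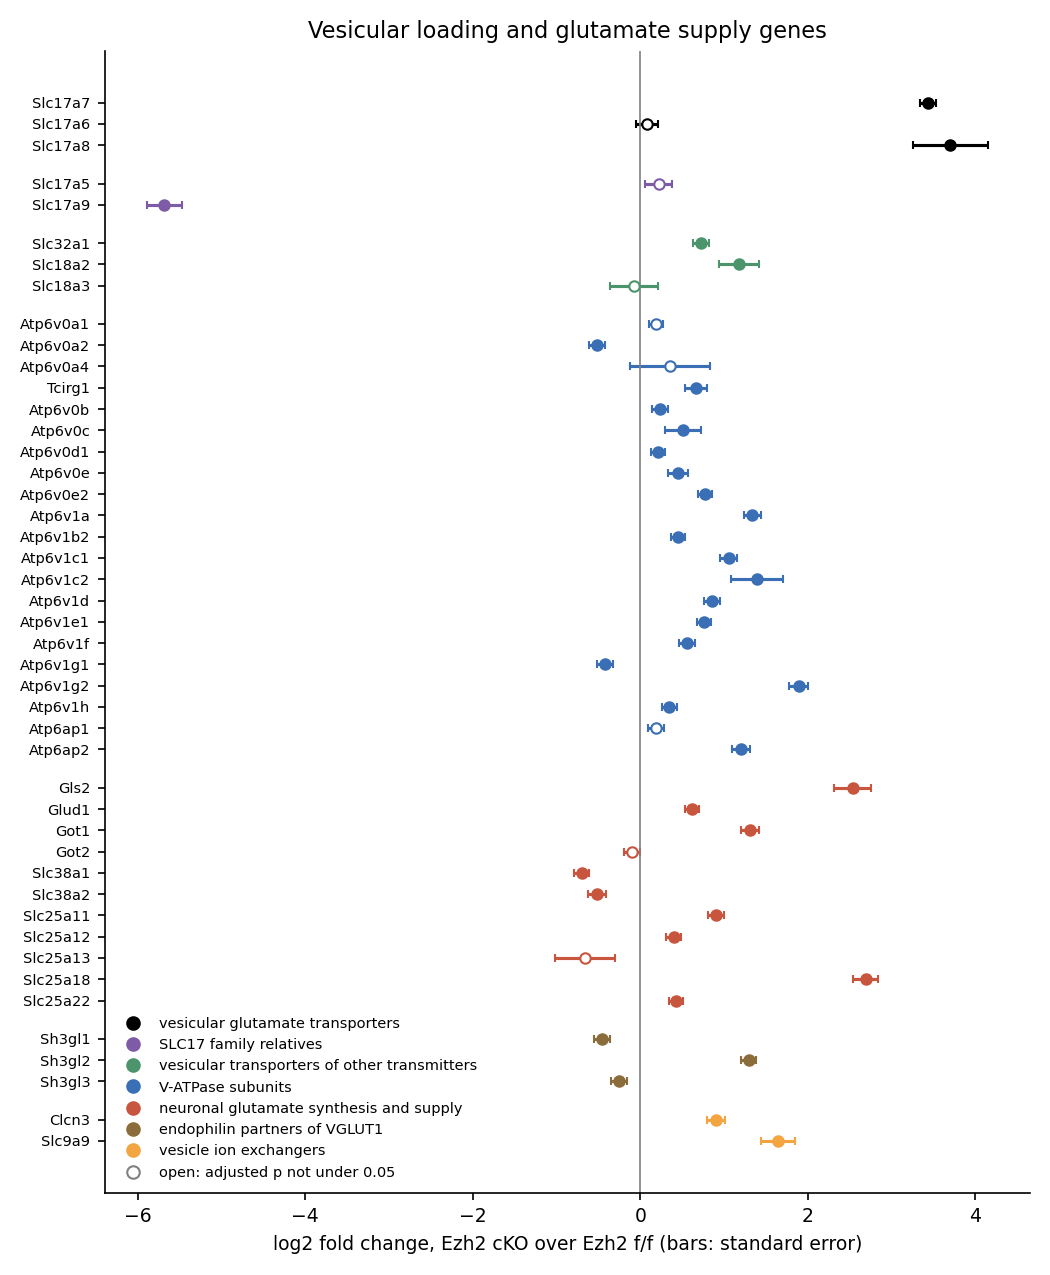
Log2 fold changes (Ezh2 cKO over controls) with standard errors for the transporter genes and for tested genes of vesicle loading and glutamate supply; filled points have an adjusted p under 0.05 in edgeR. Slc17a7 (3.44) and Slc17a8 (3.70) lie to the right of all others and Slc17a9 (-5.68) to the left; Slc18a1 is left out because both Ezh2 cKO libraries were at or under 3 counts.

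Finally, the tested genes with a mean of at least 10 CPM were ordered by how closely their log2 levels over the 4 libraries, each centred on its own mean, followed those of a transporter gene. Out of 9969 genes, the 5 nearest to Slc17a7 were Ipcef1 (Euclidean distance 0.07), Icam5 (0.13), Synpo (0.15), Ddn (0.16) and Vxn (0.19). Icam5 encodes an adhesion protein of dendrites in the telencephalon, and Synpo and Ddn encode postsynaptic proteins of dendritic spines. The 5 nearest to Slc17a6 were Pla2g15 (0.04), Cs (0.05), Alg3 (0.05), Tmx2 (0.06) and Hba-a1 (0.06), which include a lysosomal phospholipase, citrate synthase and a globin. The lowest adjusted p among these 5 was that of Cs, at 0.351 in edgeR. With 4 libraries in 2 groups such likeness rests mainly on the difference between the groups.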

How the data were processed

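RNA-seq was measured in cortical cells, with 2 libraries from Ezh2 f/f mice and 2 from Ezh2 cKO mice. The authors deposited raw counts per gene and library, and FPKM values. In 19461 genes counted in every library, FPKM equalled the count divided by the library total and by 1 length per gene (within a relative 1e-06). The submitters' processing notes name Bowtie2 2.2.3, TopHat2 2.0.12, HTSeq 0.6.0 and mm9, without roles; annotation and use of strand are not given in the sources used here. Coordinates are printed as deposited, and the starts of the 3 genes differ from GRCm38, so their build is not settled. Promoters are RefSeq sequences on GRCm38.p6, matched by symbol for all 3 genes. The deposited table also holds the authors' own comparison (mean, ratio, log2 fold change and p-values), which was not used. Every sample column was used.

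Counts were filtered with filterByExpr and normalized by TMM (factors 0.967 to 1.04). CPM are counts scaled to TMM-adjusted library sizes. Groups were compared with edgeR's quasi-likelihood test, with the group as the only term and Benjamini-Hochberg adjustment over all 16793 genes tested. Intervals of fold changes follow from the fit's standard error. The libraries of a group differed beyond sampling noise (chi-square over degrees of freedom 8.92 and 5.68) and were kept as replicates. The ratio per library was compared with an exact permutation test. Lists were not tested as sets. Some members of the lists are not reported here by name. The genes named are the 3 transporter genes, members of the lists, Ezh2 and the 5 genes most like Slc17a7 and Slc17a6 at a pseudocount of 0.5 CPM. Members and lists were chosen with earlier results of these data known.

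Alternatives were DESeq2's Wald test, edgeR with the size factors of DESeq2, edgeR on unfiltered counts, a mean of at least 50 counts, limma on log2(FPKM + 1), keeping genes at 1 FPKM or more in 2 libraries or all genes, limma on log2(FPKM + 0.1), the replicate number as a block, and each library left out. Each tool was tested on simulated data. Versions were R 4.3.3, edgeR 4.0.16, limma 3.58.1, DESeq2 1.42.0 and Python 3.11.15.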

Additional observations from a re-analysis of the deposited data

How the results depend on the processing

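Slc17a7 remained higher in all 12 alternatives (log2 fold change 3.32 to 3.55, adjusted p at most 0.00160). Slc17a8 remained higher in the 9 alternatives that tested it (3.38 to 3.97, and 0.70 with limma on log2(FPKM + 1) without a filter, where the added 1 FPKM exceeds its level by construction). The filters on FPKM and on a mean of 50 counts left it out. Slc17a6 passed the threshold in none of 12, and its direction turned when a library was left out, to -0.041 without Ezh2 f/f replicate 1 and to -0.00093 for Ezh2 cKO replicate 2; the cause was not tested. Leaving out each library in turn moved it between -0.041 and 0.19, and the difference in log2 ratio between 3.13 and 3.59. Genes called higher numbered 4677 to 5795 and genes called lower 4518 to 5747 over the alternatives. Same-numbered libraries deviated together with r = 0.12 over 16793 genes. The labels do not say that the numbers mark shared animals or batches, and with 2 pairs they were not taken as pairs. With the replicate block the log2 fold changes were 3.44 for Slc17a7, 0.08 for Slc17a6 and 3.69 for Slc17a8, the ratio differed by 3.36, and 5795 and 5599 genes were called higher and lower. Of 270 list values, 249 kept within the limits used (counts within 1.5 times, medians of the same sign and within the log2 of that factor). The median of the cortical excitatory list turned to between -0.20 and -0.00073 without each library, and that of the SLC17 relatives was 1.67 without the filter, where 4 genes enter. Of the endophilin genes 1 rather than 2 was lower with DESeq2, without the filter, and without Ezh2 f/f replicate 2 or either Ezh2 cKO library. The depth limits Slc17a8, at 4 counts per Ezh2 f/f library, more than the others.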
